A study of Mus musculus with 12 samples.

Results

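The genotype effect shared by both muscles is the set of transcripts that differed between dysferlin-deficient and control mice when both muscles were fitted together, and that differed in the same direction in each muscle. All 12 arrays entered the fit, 6 of the line C57BL/10-SJL.Dysf against 6 of C57BL/10, with the muscle (QF or TA) as a block and the control probe sets of the array left out. A probe set, the group of probes on the array that reads 1 transcript, was a member if its adjusted p was under 0.05 and its difference had the same sign in QF and in TA. Of the 10331 probe sets tested, 88 were members. No called probe set had opposite signs, so the restriction on sign removed 0 of them.

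The study measured total muscle RNA of 3-week-old mice on single-channel arrays, 1 sample per array. Mice of the line C57BL/10-SJL.Dysf, labelled Dysf -/- and here called Dysf_null, have the dysferlin mutation that arose in SJL mice, brought into C57BL/10; the C57BL/10 mice are called Control. The labels QF and TA are read here as quadriceps femoris (a proximal muscle) and tibialis anterior (a distal one), and the 4 groups (Control_QF, Dysf_null_QF, Control_TA and Dysf_null_TA) held 3 arrays each. The lines may also differ in other SJL segments that came with the mutant gene, and these and the lack of dysferlin cannot be told apart. Nothing in the labels states that the replicates of a group were separate mice, or that QF and TA of 1 number came from 1 mouse, so each p-value rests on the spread among arrays, which may be technical.

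Dysferlin is a large membrane protein of the muscle fibre that binds calcium and phospholipids and takes part in resealing the torn sarcolemma, together with annexins. Its loss causes a recessive muscular dystrophy that begins after an early period with little visible damage. Dystrophic muscle is known for infiltration by macrophages, deposition of collagen by fibroblasts and regeneration from satellite cells.

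The genotype labels could not be checked, since no probe set was named for Dysf. The muscle labels matched Hoxa11, a gene of distal limb segments, which was at the floor (4.53, the lowest value allowed, on the log2 scale) in QF and between 6.18 and 6.57 in TA. Acta1, the actin of the skeletal muscle fibre, lay between 14.05 and 14.50 (log2 intensity) on all 12 arrays. Both QF arrays with replicate number 2 stood apart: their median correlation with the remaining arrays was 0.876 (Dysf_null) and 0.866 (Control), against 0.926 to 0.959 elsewhere. Counts are therefore also given without this pair. Arrays that share a muscle and a replicate number deviated from their group means together in all 6 pairs, so results are also given with that number as a block where it changed them.

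Of the 88 members, which are 0.852% of the probe sets tested, 66 were higher in Dysf_null (0.639%) and 22 lower (0.213%). The members with 1 gene symbol numbered 82 and stood for 80 genes, 59 of them higher and 21 lower. The differences, always Dysf_null minus Control on the log2 scale and given ± the standard error (SE) of the fit, ran from 0.43 to 2.56 with a median of 0.84 among the higher members, and from -2.05 to -0.45 with a median of -0.81 among the lower ones. A difference of 1 is a 2-fold change. The median over all probe sets tested was -0.01. The median of the members' mean log2 intensities was 9.26, against 6.79 over all probe sets tested.

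In 77 of the 88, every Dysf_null array lay on the same side of every Control array both within QF and within TA. Over all probe sets tested that pattern was found in 1.98%. Members were chosen by the same values, which favoured this pattern, so nothing is read from the gap. When each muscle was tested alone, 0.455% of all probe sets were called in QF and 0.407% in TA. Of the members, 21 were called in QF only, 13 in TA only, 9 in both and 45 in neither, so 45 were called only when the muscles were fitted together. The sign itself is only a description, since 55.3% of all probe sets tested had the same sign in both muscles. Just inside the threshold lay Isg20, Pip4k2c and Lpin1 (adjusted p = 0.046, 0.0473 and 0.0473), and just outside lay Amot at -0.52 and Ccn3 at 1.03 (0.0528 and 0.0559).

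**Figure D1:**
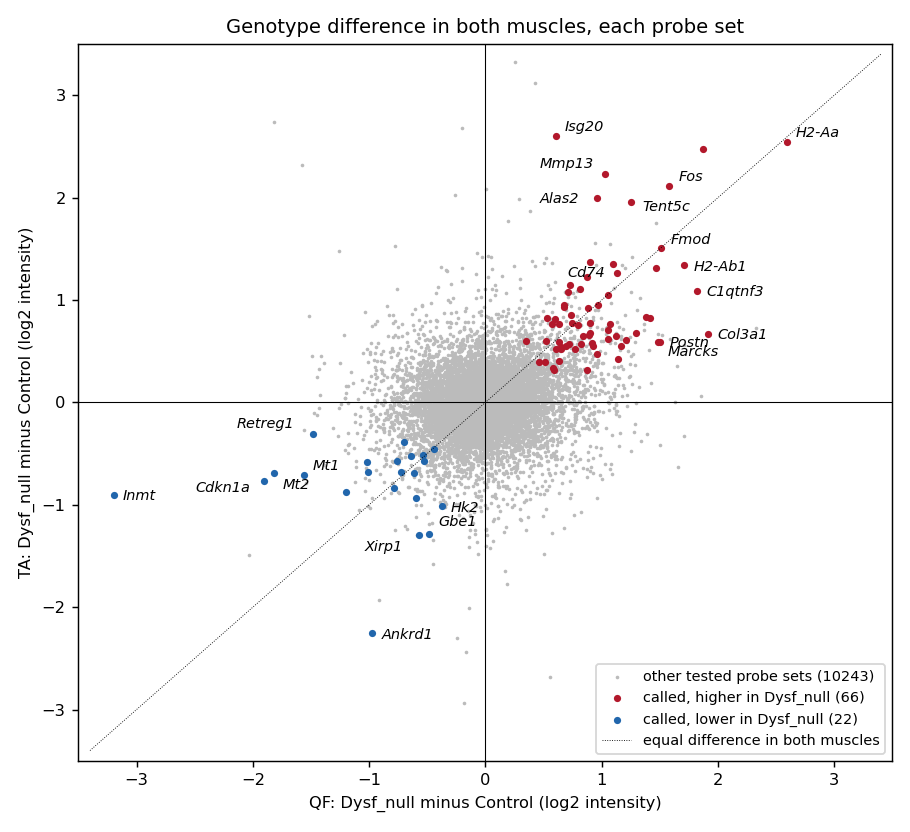
Difference between Dysf_null and Control in QF (x axis) and in TA (y axis), both log2 intensity, for each probe set tested: grey, not called; red, the 66 members higher in Dysf_null; blue, the 22 lower. The red points all lie in the upper right quadrant and the blue points in the lower left; H2-Aa, with 2 Control_QF arrays at the floor, lies near the dotted line of equal difference, whereas Inmt, Col3a1 and Retreg1 lie farther out in QF and Isg20 and Ankrd1 in TA.

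The size of the set depended on the handling of the arrays. With the replicate number as a block, 297 probe sets were called in the same direction in both muscles (2.87%; 202 higher and 95 lower), among them 86 of the 88. With each array scaled to a common median in place of quantile normalization, 14 were called, 12 higher and 2 lower, all of them members. When the prior variance was not let to vary with signal, written below as without the intensity trend, 34 were called, 29 higher and 5 lower. Without both QF arrays numbered 2, 108 were called (84 higher and 24 lower), 71 of them members. Leaving out 1 array at a time gave between 55 and 96 calls, and the lowest counts came without Control_TA 2 (55), Dysf_null_TA 2 (56), Dysf_null_TA 3 (57) and Control_TA 3 (57). Where a gene is said to stay called only without certain arrays, leaving out any other single array ended its call. None of the 88 changed direction in any of these fits, which their choice on the same arrays favoured, so nothing is read from it. Among the 82 with 1 symbol, 8 were called under all 25 alternatives: H2-Aa, Cd74, Fos, Tent5c, Fmod, C1qtnf3, Alas2 and Mkrn1.

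**Figure D2:**
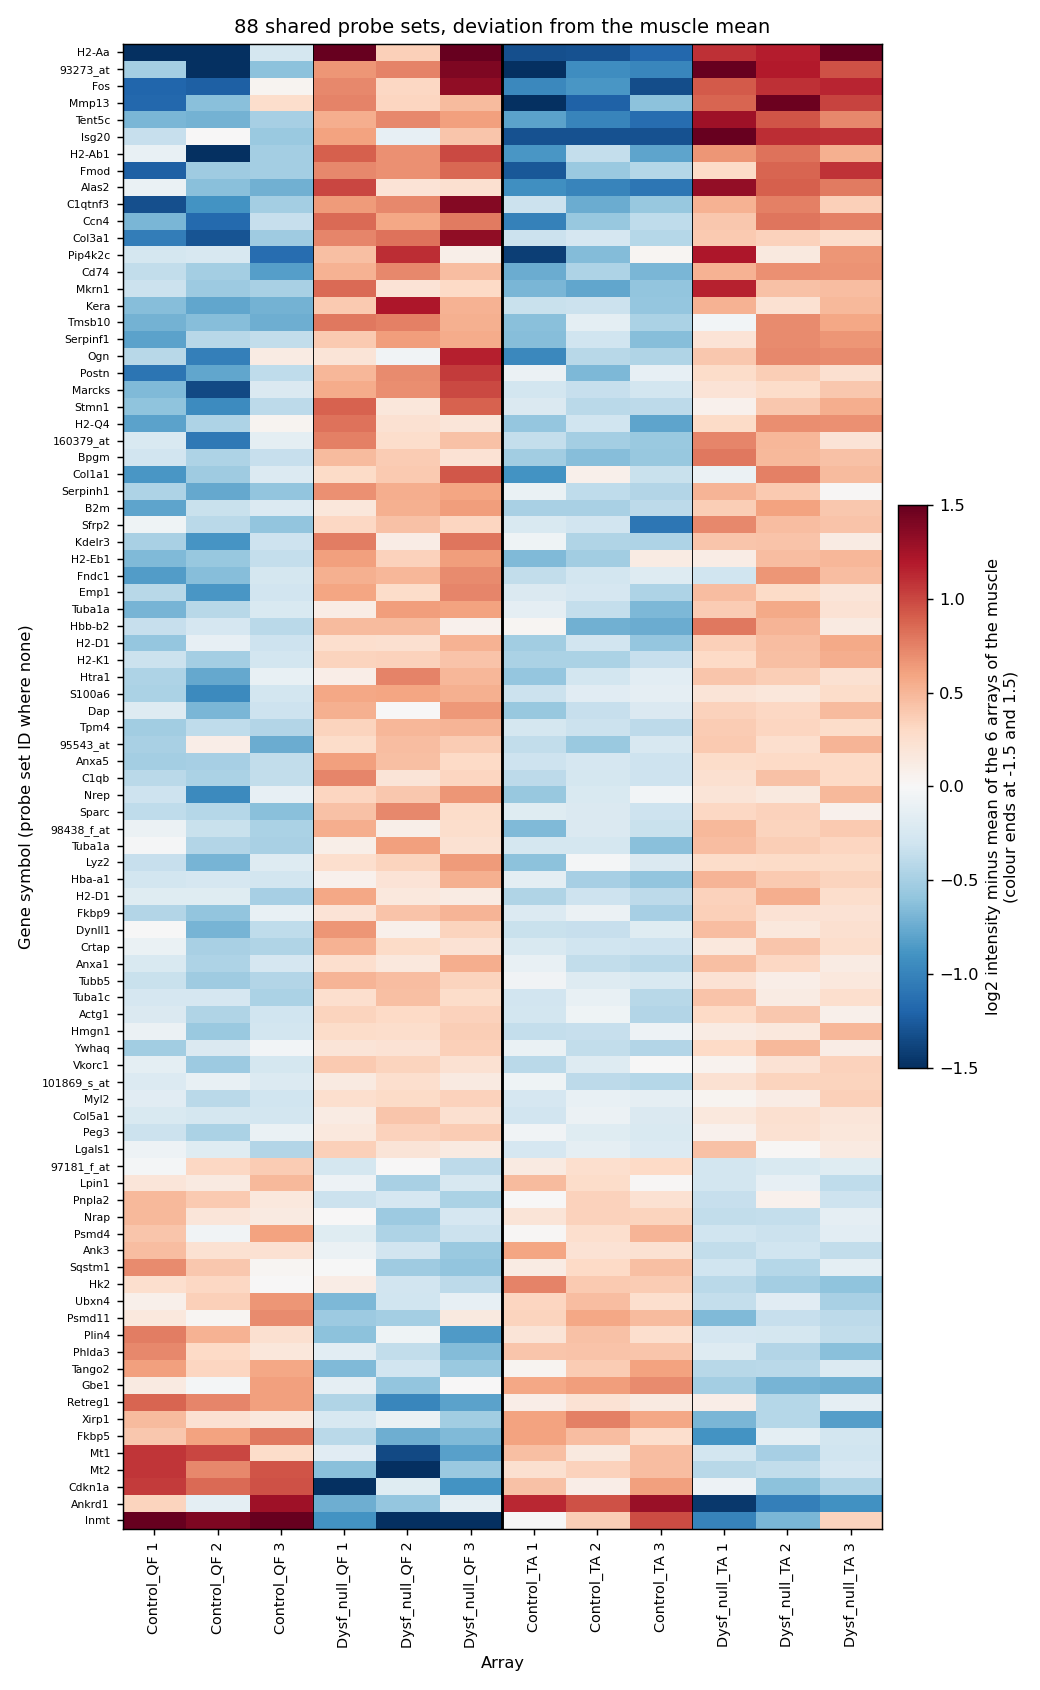
The 88 shared probe sets (rows, from the largest rise to the largest fall) on the 12 arrays (columns), as log2 intensity minus the mean of the 6 arrays of the same muscle; red is above that mean and blue below. The 3 Control and 3 Dysf_null arrays of each muscle take opposite colours in nearly every row, and Isg20 and Inmt show pale cells where their groups overlap.

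Genes of antigen presentation were among the members that rose. Class II molecules are heterodimers on the surface of antigen-presenting cells that show peptides to T cells, and 4 of the 15 probe sets of the class II list rose: the invariant chain Cd74, which guides class II molecules through the cell, the alpha chain H2-Aa and the beta chains H2-Ab1 and H2-Eb1. Class I molecules are found on nearly all cells, and 5 of the 25 probe sets of the class I list rose: the light chain B2m and heavy chains read by probe sets for H2-K1, H2-D1 (2 probe sets) and H2-Q4. No probe set of either list fell. The shares called were 26.7% and 20% against 0.852% of all tested, and the median differences were 0.19 and 0.28. The gene lists were chosen with earlier results of these data known. The shares of these and the later lists are therefore descriptions, and no enrichment is read from them. The rises in class II numbered 4 without the intensity trend and 3 with a common median, and those in class I 3 without the intensity trend and 0 with a common median. With the replicate block, which called 2.87% of all, they numbered 5 in class II and 6 in class I.

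The sequences ahead of these genes are shown because the rise took in both classes, each with well-known promoter elements. The windows run from 250 bases before the transcription start to 50 after it (RefSeq, GRCm38.p6), and 69 of the 80 member genes matched a window. H2-Ab1 had no entry and Cd74 is not shown. For the class II genes, capitals mark the letters of the core of the Y box, CCAAT on either strand, and of the X2 box, TGACGTCA. For the class I genes, capitals mark the palindromic kappa B site and the core of the interferon-stimulated response element, each searched on both strands, with no overlap between them.
H2-Aa (chr17:34287774-34288073, minus strand): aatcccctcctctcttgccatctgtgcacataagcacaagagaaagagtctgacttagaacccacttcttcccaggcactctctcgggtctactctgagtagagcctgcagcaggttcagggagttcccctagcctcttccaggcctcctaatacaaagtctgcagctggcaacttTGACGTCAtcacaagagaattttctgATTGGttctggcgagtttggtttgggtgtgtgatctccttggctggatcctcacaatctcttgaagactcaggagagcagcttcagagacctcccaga
H2-Eb1 (chr17:34305617-34305916, plus strand): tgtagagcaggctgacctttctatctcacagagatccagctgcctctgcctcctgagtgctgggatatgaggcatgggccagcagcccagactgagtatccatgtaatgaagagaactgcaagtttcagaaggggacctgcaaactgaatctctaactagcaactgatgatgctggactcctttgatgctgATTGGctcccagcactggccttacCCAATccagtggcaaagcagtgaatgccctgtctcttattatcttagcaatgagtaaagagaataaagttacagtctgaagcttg
H2-K1 (chr17:34000298-34000597, minus strand): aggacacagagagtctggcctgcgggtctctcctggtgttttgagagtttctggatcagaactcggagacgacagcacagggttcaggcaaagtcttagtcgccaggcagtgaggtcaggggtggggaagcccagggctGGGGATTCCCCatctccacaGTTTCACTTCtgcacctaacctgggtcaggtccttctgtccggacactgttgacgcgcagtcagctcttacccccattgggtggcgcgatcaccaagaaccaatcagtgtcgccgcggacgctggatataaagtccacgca
H2-D1 (chr17:35262844-35263143, plus strand): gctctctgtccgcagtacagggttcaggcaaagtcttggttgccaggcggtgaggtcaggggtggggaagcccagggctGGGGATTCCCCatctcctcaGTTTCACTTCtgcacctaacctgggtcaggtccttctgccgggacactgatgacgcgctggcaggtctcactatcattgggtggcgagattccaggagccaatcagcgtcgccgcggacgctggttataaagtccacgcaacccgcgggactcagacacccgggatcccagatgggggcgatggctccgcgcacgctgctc
The Y box letters occurred 1 time in the H2-Aa window and 2 times in that of H2-Eb1, and in 37.4% of all 32851 windows of this length. The X2 letters occurred in the H2-Aa window and not in that of H2-Eb1, and in 1.79% of all windows. Both class I windows held both class I motifs, the kappa B letters being in 0.0304% and the interferon core in 1.73% of all windows. H2-K1 and H2-D1 share an unbroken run of 47 bases that covers the kappa B site and ends before the interferon core. A match of letters is a description and does not show that a factor binds there.

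H2-Aa had the largest rise of all members. It lay at 4.53, 4.53 and 6.07 in Control_QF, 8.14, 6.69 and 8.07 in Dysf_null_QF, 5.14, 5.15 and 5.28 in Control_TA and 7.55, 7.64 and 8.001 in Dysf_null_TA, in the order of replicates 1 to 3. The shared difference was 2.56 ± 0.32 (adjusted p = 0.00143), with 2.59 in QF and 2.54 in TA. Control_QF 1 and 2 were at the floor, so the QF and the shared difference are lower bounds, and no array was at the floor in TA. H2-Ab1, its partner chain, lay at 6.50, 4.66 and 6.10 in Control_QF, 7.50, 7.30 and 7.59 in Dysf_null_QF, 5.62, 6.13 and 5.70 in Control_TA and 7.14, 7.30 and 7.02 in Dysf_null_TA. All Dysf_null arrays were above all Control arrays in both muscles, with a wide spread in Control_QF, where array 2 was lowest, and the difference was 1.53 ± 0.28 (adjusted p = 0.0201). Cd74 lay at 8.26, 8.12 and 7.81 in Control_QF, 9.15, 9.35 and 9.09 in Dysf_null_QF, 7.82, 8.10 and 7.88 in Control_TA and 9.09, 9.25 and 9.24 in Dysf_null_TA. Its arrays were tight within each group and separated by about 1 log2 unit in both muscles, with a difference of 1.20 ± 0.11 (adjusted p = 0.000542), the smallest p-value of all members. H2-Eb1 rose by 0.88 ± 0.16 (adjusted p = 0.0165), with overlap in TA. Ciita, the coactivator that switches on class II genes, was looked up after these values were seen; its probe set lay between 5.39 and 6.73 on all arrays and its genotypes overlapped in both muscles. H2-Ab1 lost its call without Dysf_null_QF 1, Dysf_null_QF 3, Dysf_null_TA 2 or Control_TA 3 (adjusted p up to 0.0578); the other class II members were called without any 1 array.

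Among the class I probe sets, B2m rose by 0.90 ± 0.11 (adjusted p = 0.0013), H2-K1 by 0.80 ± 0.08 (adjusted p = 0.000555), H2-D1 by 0.80 ± 0.11 (adjusted p = 0.00207) and 0.67 ± 0.11 (adjusted p = 0.00752), and H2-Q4 by 0.96 ± 0.18 (adjusted p = 0.0182). The heavy chain genes are near-identical copies, and these probe sets are of a kind that reads families, so which heavy chain rose is uncertain. Another H2-K1 probe set, which did not pass, stood at 0.58 ± 0.17 and a further one at -0.28 ± 0.27; a further H2-D1 probe set stood at 0.75 ± 0.33. H2-Q4 lost its call without Dysf_null_QF 1, Dysf_null_TA 2, Dysf_null_TA 3 or Control_TA 3 (adjusted p up to 0.0592). Isg20, an exonuclease induced by interferon, was the 1 member among the 35 probe sets of the interferon list (2.86%, against 0.852% of all probe sets tested). It lay at 6.11, 6.46 and 5.90 in Control_QF, 7.07, 6.34 and 6.88 in Dysf_null_QF, 4.53, 4.53 and 4.53 in Control_TA and 7.52, 6.94 and 6.93 in Dysf_null_TA. All 3 Control_TA arrays were at the floor, so its TA difference was at least 2.60, while in QF the groups overlapped. Its call (adjusted p = 0.046) was lost with the replicate block (adjusted p = 0.0576), and Isg20 stayed called only without Control_QF 2 or Dysf_null_QF 2 (adjusted p up to 0.127). The interferon list had a median of 0.06, with 5 probe sets higher and 1 lower at an unadjusted p under 0.05. Under the replicate block, which called 2.87% of all, 3 were called higher and 1 lower. The calls numbered 0 without the intensity trend or with a common median.

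Markers of macrophages were higher over the same arrays. In a tissue extract, fewer cells of a type and less RNA per cell cannot be told apart, and the same holds for more of either. Of the 36 macrophage and monocyte probe sets, 2 rose and 0 fell (5.56%, against 0.852% of all probe sets tested). They were the complement subunit C1qb (0.74 ± 0.12, adjusted p = 0.00716) and the lysozyme Lyz2 (0.70 ± 0.13, adjusted p = 0.0223). In both muscles 24 of the list were higher and 3 lower. The other C1qb probe set stood at 0.22 ± 0.20. Lyz2 lost its call without Dysf_null_QF 3, Dysf_null_TA 2, Dysf_null_TA 3 or Control_TA 1 (adjusted p up to 0.0575). C1qb was also the 1 called of 18 complement probe sets (5.56%, against 0.852% of all probe sets tested). Of these 2 rose under the replicate block, which called 2.87% of all. Of the macrophage list 7 rose with the replicate block, which called 2.87% of all, 5 without both QF arrays numbered 2, 1 without the intensity trend and 0 with a common median. Its summed intensities ran from 5427 to 6338 in Control_QF and 7142 to 7870 in Dysf_null_QF, and from 5657 to 6286 in Control_TA and 6983 to 7631 in Dysf_null_TA, without overlap in either muscle. Adgre1 and Csf1r, which define the lineage, overlapped between the genotypes in both muscles. Cd68, named after its values were seen, was lower in Dysf_null_TA (7.20 to 7.47) than in Control_TA (8.58 to 8.62) and lay at 6.91 to 7.09 in Control_QF and 7.04 to 7.22 in Dysf_null_QF. Of the 27 lymphocyte and dendritic cell probe sets limma called 0 in this fit, with 4 higher and 0 lower at an unadjusted p under 0.05. In both muscles 13 were higher and 6 lower. With the replicate block 2 rose, the B cell genes Cd79b and Ighm (adjusted p = 0.0359 and 0.0429). Without the block these stood at 0.92 ± 0.27 and 0.48 ± 0.17 (adjusted p = 0.192 and 0.32). Another Ighm probe set stood at 0.62 ± 0.23 and did not pass with the block (adjusted p = 0.0723). The B cell gene Cd79a stood at -0.32 ± 0.24. The T cell marker Cd3e was at or near the floor on all arrays. The part of these cells in the rise of the antigen presentation genes was not tested.

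The widest group of rising genes encodes the extracellular matrix and the proteins that build it. Fibrillar collagens (Col1a1, Col3a1, Col5a1), the collagen chaperone Serpinh1, the matrix protein Sparc and the hydroxylation cofactor Crtap rose, as did the small leucine-rich proteoglycans Fmod, Kera and Ogn and the matricellular protein Postn. Of the matrix proteases and inhibitors, Mmp13, Htra1 and Serpinf1 rose, and of the secreted fibroblast proteins Ccn4, C1qtnf3 and Sfrp2. No probe set of these lists fell. By list the calls were 3 of 38 for collagen chains, 3 of 18 for collagen processing, 4 of 51 for matrix glycoproteins and proteoglycans, 3 of 21 for proteases and inhibitors and 3 of 37 for secreted fibroblast proteins. The median differences were 0.36, 0.28, 0.27, 0.06 and 0.19. These are shares of 7.89%, 16.7%, 7.84%, 14.3% and 8.11%, against 0.852% of all probe sets tested. With the replicate block, which called 2.87% of all, the counts were 9, 3, 9, 5 and 9; they were 1, 1, 2, 2 and 2 without the intensity trend and 0, 0, 2, 0 and 2 with a common median, all with 0 lower.

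Col3a1, the chain of type III collagen, which is laid down early in fibrosis, lay at 7.77, 7.51 and 8.27 in Control_QF, 9.54, 9.62 and 10.14 in Dysf_null_QF, 9.22, 9.28 and 9.11 in Control_TA and 9.94, 9.89 and 9.80 in Dysf_null_TA. Every Dysf_null array was above every Control array in both muscles, and the Control_TA arrays were higher than the Control_QF arrays, so the gap was wider in QF (1.92) than in TA (0.67). The shared difference was 1.29 ± 0.22 (adjusted p = 0.0101). The other 2 Col3a1 probe sets, at 0.27 ± 0.24 and 0.50 ± 0.14, did not pass. Col1a1, a chain of type I collagen, rose by 0.92 ± 0.19 (adjusted p = 0.0371), with overlap in TA, and Col5a1, which helps start fibrils, by 0.45 ± 0.09 (adjusted p = 0.024). Col1a1 stayed called only without Control_QF 3, Control_TA 2 or Dysf_null_TA 1 (adjusted p up to 0.106). Col5a1 stayed called only without Control_QF 1, Control_QF 2, Dysf_null_QF 1, Control_TA 2 or Dysf_null_TA 1 (adjusted p up to 0.0741). Without both QF arrays numbered 2 Col1a1 was not called (adjusted p = 0.0839), and the list had 2 calls. The other probe sets stood at 0.32 ± 0.30 for Col1a1 and 0.74 ± 0.28 for Col5a1 and did not pass. Serpinh1 rose by 0.91 ± 0.13 (adjusted p = 0.00404), Sparc by 0.72 ± 0.11 (adjusted p = 0.00628) and Crtap by 0.62 ± 0.12 (adjusted p = 0.0236). Crtap lost its call without Dysf_null_QF 1, Control_QF 3, Dysf_null_TA 2, Dysf_null_TA 3, Control_TA 2 or Control_TA 3 (adjusted p up to 0.0835).

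Fmod, fibromodulin, binds collagen and sets the width of its fibrils, and is abundant in tendon. It lay at 8.11, 8.80 and 8.82 in Control_QF, 10.06, 10.02 and 10.20 in Dysf_null_QF, 8.35, 9.06 and 9.19 in Control_TA and 9.91, 10.50 and 10.71 in Dysf_null_TA. Dysf_null arrays were above Control arrays throughout, by the same amount in QF (1.51) and TA (1.51), and the difference was 1.51 ± 0.18 (adjusted p = 0.000998), 2.85-fold. The other Fmod probe set stood at 0.31 ± 0.29. Kera, a keratan sulfate proteoglycan, lay at 6.29, 6.15 and 6.22 in Control_QF, 7.32, 8.14 and 7.45 in Dysf_null_QF, 6.72, 6.72 and 6.46 in Control_TA and 7.57, 7.28 and 7.53 in Dysf_null_TA. Its Control arrays were tight, Dysf_null_QF 2 was highest, and the difference was 1.12 ± 0.20 (adjusted p = 0.0165). Postn rose by 1.05 ± 0.19 (adjusted p = 0.0164) and Ogn by 1.05 ± 0.22 (adjusted p = 0.0452), Ogn with overlap in QF. Postn was not called without both QF arrays numbered 2 (adjusted p = 0.0549). Ogn stayed called only without Control_QF 3 or Dysf_null_QF 2 (adjusted p up to 0.121), although it was called with the replicate block (adjusted p = 0.000867). The other Ogn probe set stood at 0.94 ± 0.27.

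Mmp13 is a collagenase that cuts fibrillar collagen. It lay at 4.55, 5.09 and 5.98 in Control_QF, 6.47, 6.05 and 6.19 in Dysf_null_QF, 5.31, 5.63 and 6.22 in Control_TA and 7.70, 8.31 and 7.85 in Dysf_null_TA. Dysf_null_TA stood highest, and in QF the lowest Dysf_null array (6.05) was only just above the highest Control array (5.98). The difference was 1.63 ± 0.31 (adjusted p = 0.024), and Mmp13 stayed called only without Control_QF 2, Control_QF 3, Dysf_null_QF 2 or Dysf_null_QF 3 (adjusted p up to 0.0741). Serpinf1, a secreted serpin that acts against new vessels, lay at 8.51, 8.90 and 8.95 in Control_QF, 9.71, 9.94 and 9.87 in Dysf_null_QF, 8.90, 9.25 and 8.90 in Control_TA and 9.75, 10.25 and 10.20 in Dysf_null_TA. The groups were apart by 1.05 in QF and 1.05 in TA, and the difference was 1.05 ± 0.12 (adjusted p = 0.000998). The other Serpinf1 probe set stood at 0.38 ± 0.41, with -0.17 in QF. Htra1, a secreted serine protease, rose by 0.79 ± 0.14 (adjusted p = 0.0179). Without both QF arrays numbered 2, 5 probe sets of this list rose.

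Ccn4, a secreted matricellular protein induced by Wnt signals, lay at 5.005, 4.53 and 5.34 in Control_QF, 6.54, 6.27 and 6.47 in Dysf_null_QF, 5.09, 5.54 and 5.72 in Control_TA and 6.51, 6.91 and 6.86 in Dysf_null_TA. Control_QF 2 was at the floor, and all 6 Dysf_null arrays exceeded all 6 Control arrays. The difference was 1.39 ± 0.22 (adjusted p = 0.00664), a lower bound. C1qtnf3, a secreted protein of the C1q and TNF family, lay at 5.23, 5.65 and 6.04 in Control_QF, 7.19, 7.27 and 7.92 in Dysf_null_QF, 6.21, 5.79 and 5.97 in Control_TA and 7.06, 7.29 and 6.89 in Dysf_null_TA. Control arrays overlapped between the muscles while Dysf_null arrays lay above them in each, and the difference was 1.45 ± 0.24 (adjusted p = 0.00969). Sfrp2, which binds Wnt ligands, rose by 0.89 ± 0.18 (adjusted p = 0.0353). Sfrp2 stayed called only without Control_QF 1 or Control_QF 2 (adjusted p up to 0.0943). Further members outside these lists with known parts in secretion or matrix were the retrieval receptor Kdelr3 (0.89 ± 0.17, adjusted p = 0.0236), the prolyl isomerase of the endoplasmic reticulum Fkbp9 (0.65 ± 0.12, adjusted p = 0.0171) and Fndc1, a protein with fibronectin domains (0.86 ± 0.18, adjusted p = 0.0371; overlap in TA). Kdelr3 stayed called only without Control_QF 2, Control_QF 3, Dysf_null_QF 2, Control_TA 1 or Dysf_null_TA 3 (adjusted p up to 0.0637). Fkbp9 lost its call without Control_TA 3 (adjusted p up to 0.0515). Fndc1 stayed called only without Dysf_null_TA 1 (adjusted p up to 0.107).

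Fibroblast and tendon markers moved with the matrix genes, and the lists share members. Of the 29 probe sets of that list 4 rose (13.8%, against 0.852% of all probe sets tested). They were Fmod, Kera, Col3a1 and Col1a1, all of them matrix genes counted above. The count was 13 with the replicate block, which called 2.87% of all, 3 without the intensity trend and 2 with a common median. In both muscles 22 of the list were higher and 2 lower. Its median, 0.46, was the highest of the lists. The summed intensities ran from 24267 to 30207 in Control_QF and 37170 to 46888 in Dysf_null_QF, and from 28811 to 35367 in Control_TA and 37967 to 50642 in Dysf_null_TA. Over the same arrays the skeletal muscle fibre markers summed from 166963 to 173106 in Control_QF and 153653 to 164215 in Dysf_null_QF, and from 163520 to 174212 in Control_TA and 149414 to 160008 in Dysf_null_TA, lower in Dysf_null without overlap in either muscle, although limma called 0 of their 20 probe sets (0 higher and 1 lower at an unadjusted p under 0.05, 0 with the replicate block). Of the 21 bone, cartilage and skin probe sets 2 rose (9.52%, against 0.852% of all probe sets tested), Sparc and Mmp13. In both muscles 10 of that list were higher and 4 lower. The skin keratin Krt14 was at the floor on all arrays and Krt5 at or near it. The list's summed intensities ran from 3427 to 4619 in Control_QF and 5200 to 7607 in Dysf_null_QF. In TA they ran from 3916 to 4168 in Control and 5563 to 6530 in Dysf_null. The called Sparc, already counted above, makes up the largest part of these sums, so in QF they largely restate its call. Acp5 of this list stood at 1.12 ± 0.26 (adjusted p = 0.0663), with 0.38 in QF and 1.87 in TA. The part of the share of fibroblasts, tendon, bone or fibres in the matrix result was not tested.

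**Figure D3:**
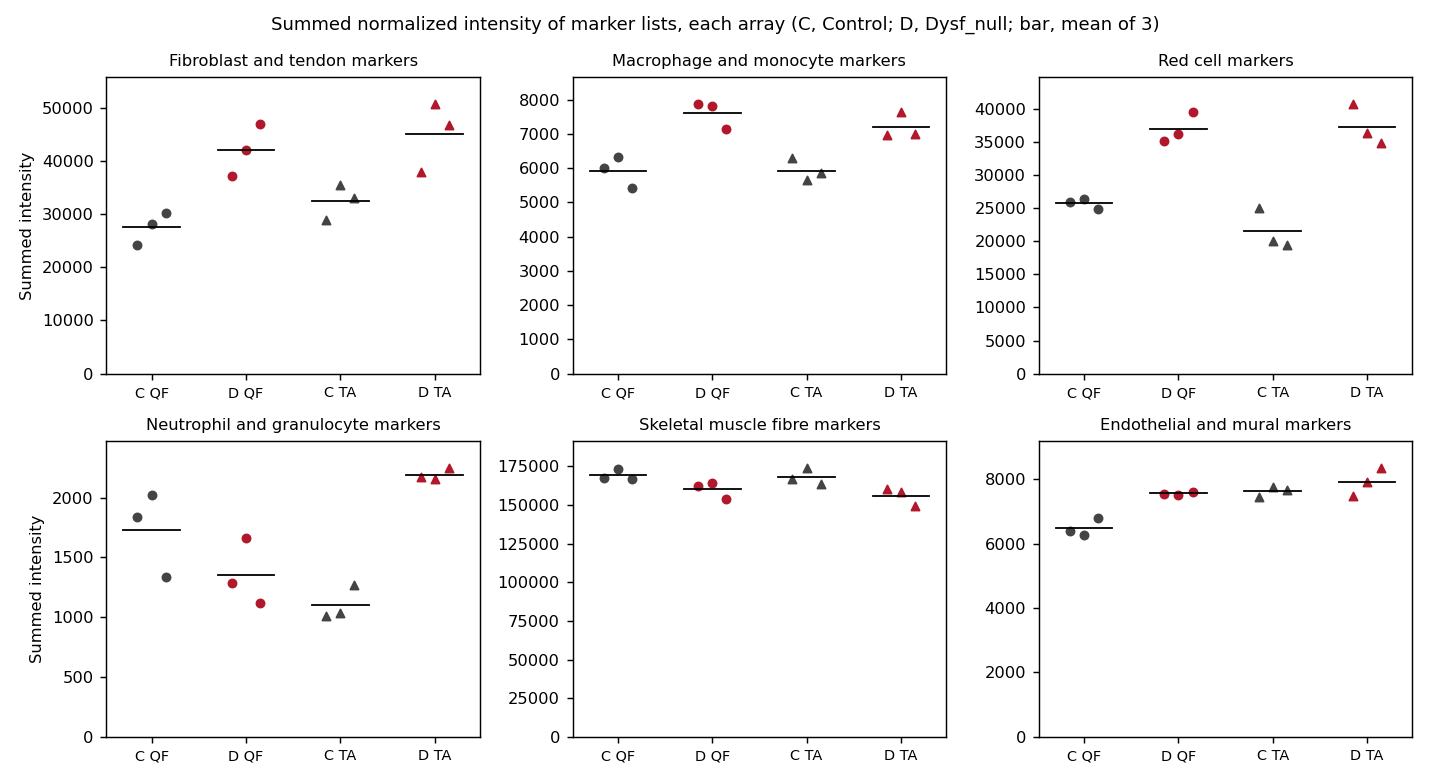
Summed normalized intensity (y axis from 0) of 6 marker lists on each array, by group (C, Control; D, Dysf_null; circles, QF; triangles, TA; bars, mean of 3 arrays). Fibroblast and tendon, macrophage and red cell markers are higher and muscle fibre markers lower in Dysf_null of both muscles, while neutrophil markers are higher in Dysf_null in TA and, with overlapping ranges, lower in all 3 same-numbered pairs in QF.

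Cytoskeletal genes of non-muscle type gave the most calls of any list. Of its 55 probe sets 9 rose and 0 fell (16.4%, against 0.852% of all probe sets tested), with a median of 0.32. The count was 17 with the replicate block, which called 2.87% of all, 3 without the intensity trend and 0 with a common median. In both muscles 36 were higher and 3 lower. The 9 were the actin monomer binder Tmsb10, the cytoplasmic actin Actg1, the tropomyosin Tpm4, the tubulins Tuba1a (2 probe sets), Tuba1c and Tubb5, the microtubule destabiliser Stmn1 and the membrane and actin linker Marcks. Tmsb10 lay at 9.39, 9.47 and 9.37 in Control_QF, 10.89, 10.86 and 10.63 in Dysf_null_QF, 9.66, 10.15 and 9.82 in Control_TA and 10.25, 10.997 and 10.88 in Dysf_null_TA. Dysf_null_TA 1 (10.25) was only just above Control_TA 2 (10.15), whereas in QF the groups were over 1 log2 unit apart, and the difference was 1.11 ± 0.15 (adjusted p = 0.00207). Tpm4 rose by 0.77 ± 0.08 (adjusted p = 0.00065), Actg1 by 0.59 ± 0.09 (adjusted p = 0.00477), Stmn1 by 0.99 ± 0.20 (adjusted p = 0.0284) and Marcks by 1.04 ± 0.20 (adjusted p = 0.0236). The tubulin probe sets rose by 0.84 and 0.70 for Tuba1a, 0.60 for Tuba1c and 0.60 for Tubb5; these genes are close copies, so the signal may be shared among them. Marcks lost its call without Dysf_null_QF 1, Dysf_null_QF 2, Dysf_null_QF 3, Control_QF 1 or Dysf_null_TA 3 (adjusted p up to 0.0593). Stmn1 stayed called only without Control_QF 2, Control_QF 3, Dysf_null_QF 2, Control_TA 1 or Dysf_null_TA 1 (adjusted p up to 0.0831). Tubb5 lost its call without Dysf_null_QF 1 (adjusted p up to 0.0569). The other Tubb5 probe set stood at 0.64 ± 0.16. Dynll1, a light chain of the dynein motor, rose by 0.64 ± 0.13 (adjusted p = 0.0247). Dynll1 stayed called only without Control_QF 1, Control_QF 2, Dysf_null_QF 2, Control_TA 3 or Dysf_null_TA 2 (adjusted p up to 0.0672).

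Membrane repair is the process in which dysferlin is known to act. Of the 61 probe sets of the list for membrane repair and the dystrophin complex, 3 rose and 0 fell (4.92%, against 0.852% of all probe sets tested). They were the calcium-dependent membrane binders Anxa5 (0.75 ± 0.09, adjusted p = 0.0013) and Anxa1 (0.61 ± 0.11, adjusted p = 0.0156) and the galectin Lgals1 (0.43 ± 0.09, adjusted p = 0.0435). Lgals1 stayed called only without Control_QF 1 or Dysf_null_TA 2 (adjusted p up to 0.108), and not without both QF arrays numbered 2 (adjusted p = 0.0839). The other Anxa1 probe sets, at 0.81 ± 0.19 and 0.65 ± 0.25, did not pass. Under the replicate block, which called 2.87% of all, 6 of the list rose and 1 fell. The rises numbered 1 without the intensity trend and 0 with a common median. Anxa2 stood at 0.68 ± 0.15 and missed the threshold (adjusted p = 0.0559). The list as a whole was near 0, with a median of 0.0013 and 20 probe sets higher against 17 lower in both muscles. S100a6, a calcium-binding partner of annexins outside that list, rose by 0.78 ± 0.14 (adjusted p = 0.0179).

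Cell cycle genes were mostly higher without passing one by one. Of their 65 probe sets 46 were higher and 3 lower in both muscles, with a median of 0.36. In the fit 2 rose (3.08%, against 0.852% of all probe sets tested), Tubb5 and Stmn1, both counted above. With the replicate block, which called 2.87% of all, 7 rose, and 0 did without the intensity trend or with a common median. Mki67, the proliferation antigen, stood at 1.11 ± 0.25 (adjusted p = 0.0559) by 1 probe set and at -0.43 ± 0.22 by the other. Of the 40 probe sets of embryonic and regenerating muscle 1 rose (2.5%, against 0.852% of all probe sets tested), the imprinted gene Peg3 (0.45 ± 0.10, adjusted p = 0.0427). In both muscles 10 were higher and 13 lower. The replicate block gave 2 rises and 2 falls, and the fit without the intensity trend and that with a common median 0. Peg3 stayed called only without Control_TA 1 or Dysf_null_TA 1 (adjusted p up to 0.106), and without both QF arrays numbered 2 its adjusted p was 0.0817. The other Peg3 probe sets stood at -0.09 ± 0.28 and 0.19 ± 0.20. Of the 22 slow fibre probe sets 1 rose (4.55%, against 0.852% of all probe sets tested), the regulatory light chain Myl2 (0.46 ± 0.09, adjusted p = 0.0232). In both muscles 6 were higher and 6 lower, with a median of -0.04. The list's summed intensities were higher in Dysf_null_QF (26911 to 28868) than in Control_QF (23481 to 25424). In TA they were lower in Dysf_null (31135 to 35542) than in Control (46231 to 51831). Under the replicate block 2 slow fibre probe sets rose, and 0 did without the intensity trend or with a common median. Myl2 lost its call without Dysf_null_QF 1, Dysf_null_QF 2, Dysf_null_QF 3, Control_QF 3, Dysf_null_TA 3 or Control_TA 1 (adjusted p up to 0.0701), and without both QF arrays numbered 2 its adjusted p was 0.0595.

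Some red cell genes rose in both muscles. Of the 18 red cell probe sets 4 rose and 0 fell (22.2%): Alas2, the erythroid enzyme that starts haem synthesis, Bpgm, which makes the regulator of haemoglobin's oxygen affinity, and the globins Hba-a1 and Hbb-b2. Alas2 lay at 9.09, 8.56 and 8.46 in Control_QF, 10.19, 9.39 and 9.43 in Dysf_null_QF, 8.23, 8.17 and 8.07 in Control_TA and 10.47, 10.06 and 9.94 in Dysf_null_TA. All Dysf_null arrays were above all Control arrays of their muscle, Control_TA was tight and low, and the difference was 1.48 ± 0.21 (adjusted p = 0.00404), 2.79-fold. Bpgm rose by 0.94 ± 0.11 (adjusted p = 0.000998), Hba-a1 by 0.68 ± 0.10 (adjusted p = 0.00628) and Hbb-b2 by 0.81 ± 0.15 (adjusted p = 0.0182). The globin genes are near copies and may share signal. Hbb-b2 lost its call without Dysf_null_TA 2 or Control_TA 2 (adjusted p up to 0.0546). The share called, 22.2%, is set against 0.852% of all probe sets tested. The list's median was 0.27 (0.12 in QF and 0.50 in TA), with 9 probe sets higher and 1 lower in both muscles. The list's count was 5 with the replicate block, which called 2.87% of all, 2 without the intensity trend and 1 with a common median. Summed intensities of the red cell list ran from 24899 to 26396 in Control_QF and 35182 to 39534 in Dysf_null_QF, and from 19460 to 25036 in Control_TA and 34955 to 40769 in Dysf_null_TA. The called globins Hba-a1 and Hbb-b2 make up most of these sums, so the sums largely restate those calls. How much blood the muscles held is not given in the labels, and its part in these values was not tested.

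Members in no list of cell types included several of the largest rises. Fos, a transcription factor subunit induced within minutes of a stimulus, lay at 6.33, 6.30 and 7.56 in Control_QF, 8.24, 7.83 and 8.85 in Dysf_null_QF, 6.79, 6.88 and 6.42 in Control_TA and 8.67, 8.85 and 8.89 in Dysf_null_TA. Control_QF 3 (7.56) was high for its group and Dysf_null_QF 2 (7.83) only just above it, while in TA the groups were about 2 log2 units apart. The difference was 1.84 ± 0.24 (adjusted p = 0.00207), 3.59-fold. It was the 1 called of 38 immediate early probe sets, of which 17 were higher and 1 lower in both muscles; with the replicate block 5 rose and 1 fell, and without both QF arrays numbered 2, 3 rose. The other Fos probe set stood at 0.03 ± 0.23.

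Tent5c, a poly(A) polymerase that lengthens the tails of messenger RNA, lay at 7.30, 7.27 and 7.49 in Control_QF, 8.53, 8.70 and 8.60 in Dysf_null_QF, 6.64, 6.45 and 6.29 in Control_TA and 8.71, 8.38 and 8.16 in Dysf_null_TA. The groups were tight and far apart, and the difference was 1.61 ± 0.17 (adjusted p = 0.000555), 3.04-fold. Mkrn1, a ubiquitin ligase with zinc fingers, lay at 8.04, 7.81 and 7.88 in Control_QF, 9.21, 8.57 and 8.66 in Dysf_null_QF, 7.74, 7.65 and 7.84 in Control_TA and 9.58, 8.88 and 8.90 in Dysf_null_TA. The array numbered 1 was highest in each Dysf_null group, and the difference was 1.14 ± 0.16 (adjusted p = 0.00453); its other probe sets stood at 1.14 ± 0.42 and 0.43 ± 0.24. Pip4k2c, a phosphoinositide kinase, lay at 9.48, 9.50 and 8.60 in Control_QF, 10.19, 10.86 and 9.83 in Dysf_null_QF, 7.98, 8.74 and 9.41 in Control_TA and 10.60, 9.53 and 10.05 in Dysf_null_TA. Control_TA spread over more than 1 log2 unit, with array 3 (9.41) just below the lowest Dysf_null_TA array (9.53), and the difference was 1.22 ± 0.27 (adjusted p = 0.0473). Pip4k2c stayed called only without Control_QF 2, Dysf_null_QF 3 or Control_TA 3 (adjusted p up to 0.113), and without both QF arrays numbered 2 its adjusted p was 0.0699. The other Pip4k2c probe set stood at 0.11 ± 0.40, so this gene's rise rests on 1 of 2 probe sets.

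The remaining higher members with 1 symbol were the membrane protein Emp1 (0.84 ± 0.13, adjusted p = 0.00632), Dap (0.78 ± 0.14, adjusted p = 0.0148), the chromatin protein Hmgn1 (0.56 ± 0.10, adjusted p = 0.0179), the adaptor Ywhaq (0.56 ± 0.10, adjusted p = 0.0181), Nrep (0.74 ± 0.15, adjusted p = 0.0307) and Vkorc1, which recycles vitamin K (0.52 ± 0.11, adjusted p = 0.0457). Hmgn1 lost its call without Control_TA 2 (adjusted p up to 0.0523). Ywhaq lost its call without Dysf_null_TA 2, Control_TA 2 or Control_TA 3 (adjusted p up to 0.0562). Nrep stayed called only without Control_QF 2, Control_QF 3, Control_TA 3, Dysf_null_TA 1 or Dysf_null_TA 2 (adjusted p up to 0.0831). Vkorc1 stayed called only without Control_TA 3 or Dysf_null_TA 1 (adjusted p up to 0.127), and without both QF arrays numbered 2 its adjusted p was 0.0789. The other Ywhaq probe sets stood at -0.12 ± 0.30 and 0.24 ± 0.18. The probe set 93273_at, which has no symbol in the annotation used, was second only to H2-Aa: it lay at 5.68, 4.53 and 5.58 in Control_QF, 6.86, 6.93 and 7.60 in Dysf_null_QF, 4.62, 5.50 and 5.46 in Control_TA and 8.001, 7.62 and 7.38 in Dysf_null_TA. Its Control_QF 2 array was at the floor, its groups did not overlap, and the difference, a lower bound, was 2.17 ± 0.28 (adjusted p = 0.00207). A further one without a symbol, 160379_at, rose by 0.96. The 4 probe sets with several symbols were 95543_at (0.76), 98438_f_at (0.71), 101869_s_at (0.47) and 97181_f_at (-0.45).

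**Figure D4:**
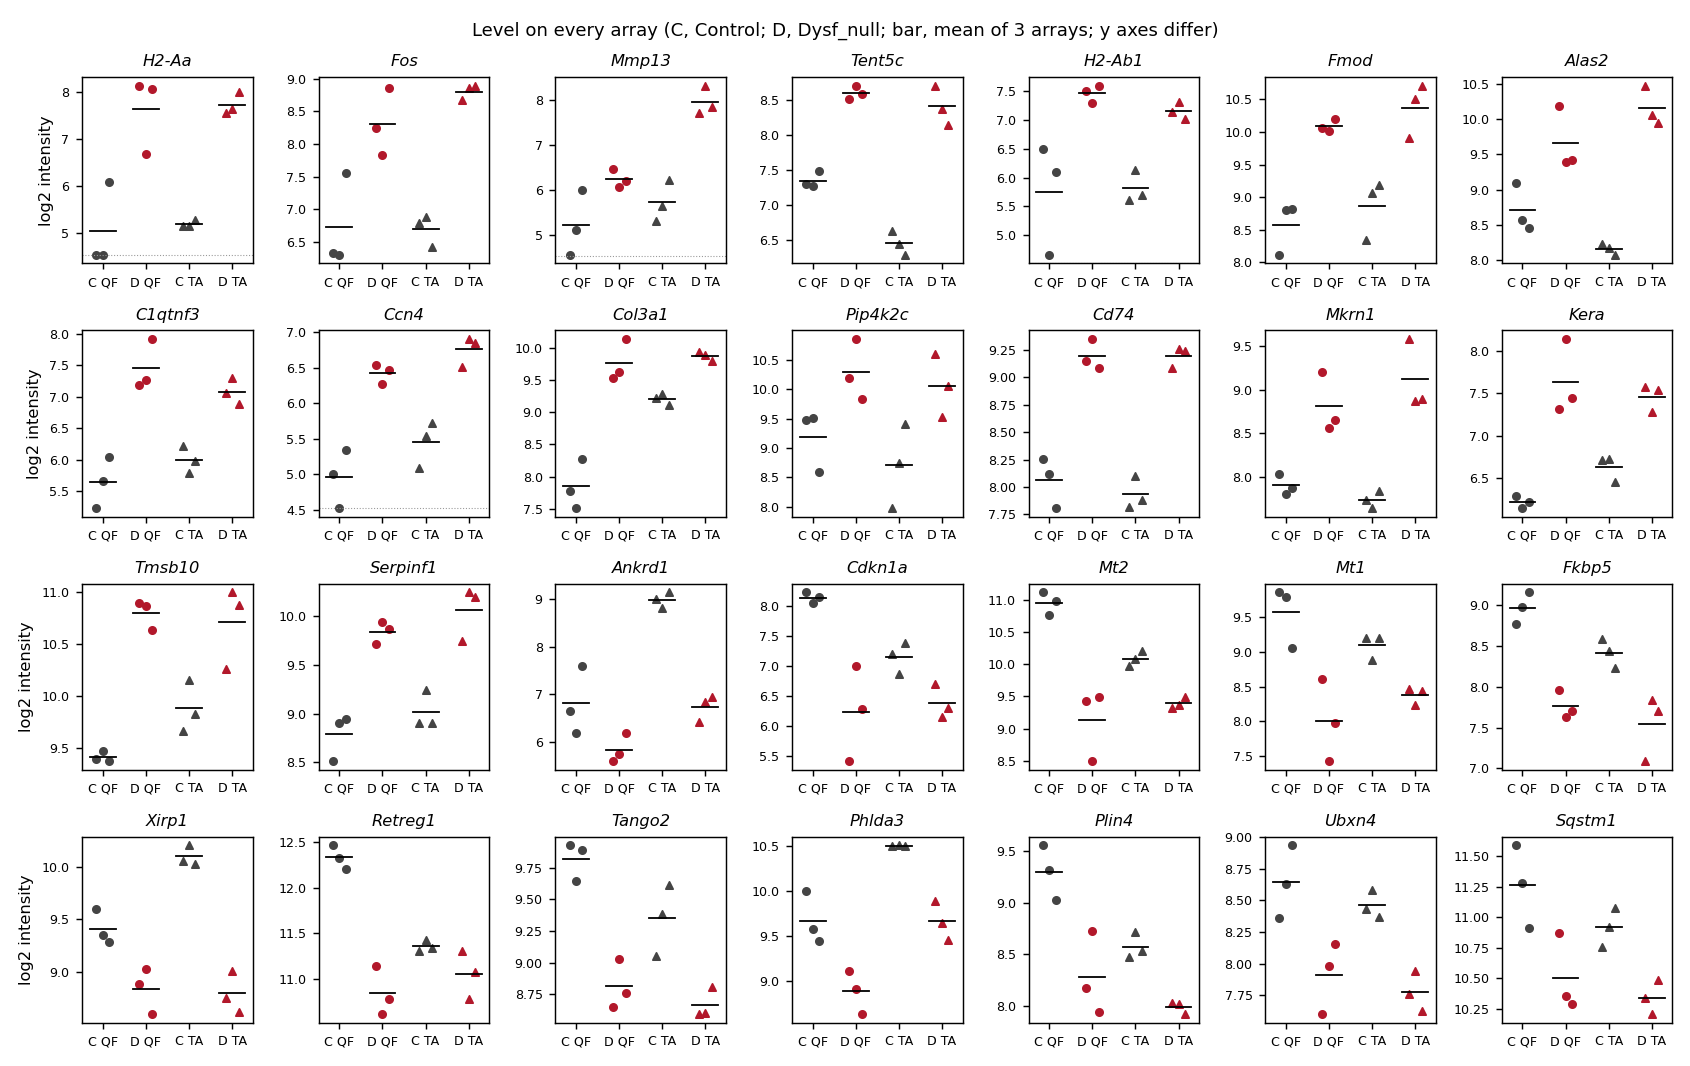
Level (log2 intensity, y axes differ) on every array for the 16 higher and 12 lower genes with the largest differences among those whose groups do not overlap in QF or in TA (C, Control, grey; D, Dysf_null, red; circles, QF; triangles, TA; bars, mean of 3 arrays; dotted line, the floor at 4.53). The Dysf_null points lie on the same side of the Control points in both muscles in every panel, while the gap differs in width, as for Col3a1 (1.92 in QF and 0.67 in TA) and Ankrd1 (-0.97 and -2.25).

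Among the lower members were metallothioneins and genes that respond to glucocorticoids. Metallothioneins are small proteins that bind zinc and copper and are induced by metals and by glucocorticoids. Of the 41 probe sets of this list 4 fell and 0 rose (9.76%, against 0.852% of all probe sets tested). They were Mt1 and Mt2, the co-chaperone of steroid receptors Fkbp5 and the cell cycle inhibitor Cdkn1a. The list's median was -0.13, with 19 probe sets lower and 3 higher in both muscles. Under the replicate block, which called 2.87% of all, 4 fell and 1 rose. The falls numbered 1 without the intensity trend and 0 with a common median. The list's median was -0.25 in QF and -0.05 in TA. Its summed intensities ran from 18558 to 21830 in Control_QF and 15260 to 16138 in Dysf_null_QF, and from 15226 to 15511 in Control_TA and 15058 to 15541 in Dysf_null_TA, apart in QF and overlapping in TA. Mt1 and Mt2 are neighbours in the order of measured genes, and their promoter windows are shown since both fell. Capitals mark the cores of the metal response element, TGCACNC and TGCGCNC, on either strand (RefSeq, GRCm38.p6).
Mt1 (chr8:94178839-94179138, plus strand): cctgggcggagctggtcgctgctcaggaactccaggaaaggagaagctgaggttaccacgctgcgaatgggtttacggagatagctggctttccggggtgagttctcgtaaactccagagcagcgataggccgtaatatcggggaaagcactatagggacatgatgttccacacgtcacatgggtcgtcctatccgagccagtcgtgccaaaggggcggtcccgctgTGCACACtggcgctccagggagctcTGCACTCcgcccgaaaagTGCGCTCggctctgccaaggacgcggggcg
Mt2 (chr8:94172368-94172667, plus strand): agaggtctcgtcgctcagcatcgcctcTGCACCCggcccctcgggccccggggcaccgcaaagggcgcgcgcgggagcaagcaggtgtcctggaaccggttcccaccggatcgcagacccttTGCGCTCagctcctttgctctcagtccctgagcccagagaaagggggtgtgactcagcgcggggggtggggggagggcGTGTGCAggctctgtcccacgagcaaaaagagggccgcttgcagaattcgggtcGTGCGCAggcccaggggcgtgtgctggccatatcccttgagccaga
The Mt1 window held 3 such matches (2 of TGCACNC and 1 of TGCGCNC) and the Mt2 window 4 (2 of each); 25.7% of all windows held at least 1 of either. No run longer than 8 bases was shared by both windows.

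Mt2 lay at 11.12, 10.76 and 10.99 in Control_QF, 9.42, 8.49 and 9.49 in Dysf_null_QF, 9.98, 10.08 and 10.20 in Control_TA and 9.33, 9.37 and 9.49 in Dysf_null_TA. Control_QF was highest and Dysf_null_QF 2 lowest, the groups were apart in both muscles, and the difference was -1.26 ± 0.21 (adjusted p = 0.0112). Mt1 lay at 9.86, 9.79 and 9.06 in Control_QF, 8.61, 7.43 and 7.97 in Dysf_null_QF, 9.19, 8.89 and 9.20 in Control_TA and 8.46, 8.24 and 8.44 in Dysf_null_TA. It followed the same order of groups, with a difference of -1.14 ± 0.22 (adjusted p = 0.0246). The falls were larger in QF (-1.82 for Mt2 and -1.56 for Mt1) than in TA (-0.69 and -0.71), but the difference between muscles did not pass for either. Fkbp5 lay at 8.77, 8.98 and 9.16 in Control_QF, 7.97, 7.63 and 7.70 in Dysf_null_QF, 8.59, 8.44 and 8.23 in Control_TA and 7.09, 7.83 and 7.70 in Dysf_null_TA. All 6 Dysf_null arrays were below all 6 Control arrays, and the difference was -1.04 ± 0.16 (adjusted p = 0.00489). Cdkn1a, the inhibitor p21, lay at 8.23, 8.04 and 8.14 in Control_QF, 5.42, 6.997 and 6.29 in Dysf_null_QF, 7.20, 6.87 and 7.37 in Control_TA and 6.69, 6.14 and 6.29 in Dysf_null_TA. Control_QF was tight and high, Dysf_null_QF spread over more than 1 log2 unit, and the difference was -1.34 ± 0.29 (adjusted p = 0.0455). Mt1 lost its call without Dysf_null_QF 3, Control_QF 1, Dysf_null_TA 2 or Control_TA 3 (adjusted p up to 0.0661). Cdkn1a stayed called only without Dysf_null_QF 2 or Dysf_null_TA 1 (adjusted p up to 0.106), and without both QF arrays numbered 2 its adjusted p was 0.0543. The other Cdkn1a probe set stood at -0.08 ± 0.17.

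Among the lower members were stress genes of the Z-disc, the anchor of actin and titin in the sarcomere. Of the 25 probe sets of that list 3 fell and 0 rose (12%, against 0.852% of all probe sets tested), with a median of -0.18. With the replicate block, which called 2.87% of all, 4 fell, and 2 fell without the intensity trend and 1 with a common median. The 3 were Ankrd1, a titin-binding ankyrin repeat protein that also acts in the nucleus, the actin-binding repeat protein Xirp1 and Nrap, which takes part in building myofibrils. Ankrd1 lay at 6.65, 6.18 and 7.59 in Control_QF, 5.59, 5.74 and 6.18 in Dysf_null_QF, 8.999, 8.82 and 9.15 in Control_TA and 6.42, 6.84 and 6.95 in Dysf_null_TA. It was far higher in Control_TA than in any other group, and Dysf_null arrays were below Control arrays in each muscle, although in QF the highest Dysf_null and the lowest Control array both read 6.18. The difference was -1.61 ± 0.29 (adjusted p = 0.0171). Xirp1 lay at 9.60, 9.35 and 9.29 in Control_QF, 8.89, 9.03 and 8.60 in Dysf_null_QF, 10.06, 10.20 and 10.03 in Control_TA and 8.76, 9.02 and 8.63 in Dysf_null_TA. Dysf_null_QF and Dysf_null_TA overlapped with each other while the Control groups stood above them, TA higher, and the difference was -0.93 ± 0.15 (adjusted p = 0.00628). Nrap fell (-0.55 ± 0.10, adjusted p = 0.0195). Ankrd1 lost its call without Control_TA 2 or Control_TA 3 (adjusted p up to 0.0515). Nrap lost its call without Dysf_null_TA 2, Control_TA 2 or Control_TA 3 (adjusted p up to 0.0591). Ankrd2, a relative of Ankrd1, stood at -1.27 ± 0.30 (adjusted p = 0.0663).

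Protein turnover genes were lower in both muscles across most of their list. Of its 76 probe sets 5 fell and 0 rose (6.58%, against 0.852% of all probe sets tested). In both muscles 52 were lower and 7 higher, and the median was -0.25, the lowest of the lists with at least 5 probe sets. The 5 were the autophagy receptor Sqstm1, the endoplasmic reticulum receptor for autophagy Retreg1, the regulatory proteasome subunits Psmd4 and Psmd11 and the degradation cofactor Ubxn4. Under the replicate block, which called 2.87% of all, 13 fell and 1 rose. The falls numbered 0 without the intensity trend and 0 with a common median. Leaving out 1 array at a time gave between 0 and 4 falls, so no array could be left out without losing a call of this list. Summed intensities of the list ran from 80630 to 86312 in Control_QF and 60306 to 68972 in Dysf_null_QF, and from 72034 to 74667 in Control_TA and 62908 to 65517 in Dysf_null_TA.

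Retreg1 lay at 12.46, 12.32 and 12.21 in Control_QF, 11.14, 10.61 and 10.78 in Dysf_null_QF, 11.31, 11.43 and 11.34 in Control_TA and 11.30, 10.78 and 11.08 in Dysf_null_TA. In QF the groups were over 1 log2 unit apart, and in TA the highest Dysf_null array (11.30) was just below the lowest Control array (11.31), with a shared difference of -0.90 ± 0.19 (adjusted p = 0.0435). Its call was lost with the replicate block (adjusted p = 0.0539) and without both QF arrays numbered 2 (adjusted p = 0.104), and Retreg1 stayed called only without Control_TA 1 or Dysf_null_TA 1 (adjusted p up to 0.0981). Sqstm1 lay at 11.59, 11.28 and 10.92 in Control_QF, 10.88, 10.36 and 10.29 in Dysf_null_QF, 10.76, 10.93 and 11.08 in Control_TA and 10.34, 10.21 and 10.49 in Dysf_null_TA. Dysf_null_QF 1 (10.88) was just below Control_QF 3 (10.92), and the difference was -0.67 ± 0.13 (adjusted p = 0.0264). Ubxn4 lay at 8.36, 8.63 and 8.94 in Control_QF, 7.60, 7.98 and 8.16 in Dysf_null_QF, 8.43, 8.58 and 8.37 in Control_TA and 7.76, 7.94 and 7.63 in Dysf_null_TA. The Dysf_null arrays were lower throughout (-0.73 in QF and -0.68 in TA), and the difference was -0.71 ± 0.14 (adjusted p = 0.0269). Psmd11 fell (-0.76 ± 0.15, adjusted p = 0.031), with overlap in QF, and Psmd4 fell too (-0.58 ± 0.12, adjusted p = 0.0381). The other Psmd11 probe sets stood at -0.46 ± 0.16 and 0.24 ± 0.45. Sqstm1 stayed called only without Control_QF 2, Control_QF 3, Dysf_null_QF 1, Control_TA 1 or Dysf_null_TA 3 (adjusted p up to 0.0768), and without both QF arrays numbered 2 its adjusted p was 0.0788. Ubxn4 stayed called only without Control_QF 1, Control_QF 2, Dysf_null_QF 2, Dysf_null_QF 3 or Dysf_null_TA 2 (adjusted p up to 0.0848). Psmd11 stayed called only without Control_QF 1, Control_QF 2 or Dysf_null_QF 3 (adjusted p up to 0.091). Psmd4 stayed called only without Control_QF 2 or Control_TA 1 (adjusted p up to 0.1).

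A few genes of lipid droplets, glycogen and glucose use also fell. Plin4, which coats lipid droplets, lay at 9.56, 9.31 and 9.02 in Control_QF, 8.17, 8.72 and 7.94 in Dysf_null_QF, 8.48, 8.72 and 8.53 in Control_TA and 8.03, 8.02 and 7.92 in Dysf_null_TA. Dysf_null_QF 2 (8.72) was nearest to the Control arrays, and the difference was -0.80 ± 0.15 (adjusted p = 0.0236). Pnpla2, the lipase that starts the breakdown of stored fat, fell (-0.54 ± 0.11, adjusted p = 0.0275), with overlap in TA, as did Lpin1, a phosphatidate phosphatase (-0.53 ± 0.11, adjusted p = 0.0473). Gbe1, the glycogen branching enzyme, fell (-0.88 ± 0.18, adjusted p = 0.0377) as did Hk2, the hexokinase of muscle (-0.70 ± 0.14, adjusted p = 0.0275), both with overlap in QF. These were 2 of 41 probe sets for fatty acid use (Plin4 and Pnpla2; 4.88%) and 2 of 35 for glycolysis and glycogen (Gbe1 and Hk2; 5.71%), against 0.852% of all probe sets tested, with 0 higher in either list and medians of -0.13 and -0.09. Under the replicate block, which called 2.87% of all, 3 fell in each. Without the intensity trend 0 fell in either, and with a common median 1 fell for fatty acid use (Plin4) and 0 for glycolysis. The fat cell markers, which also hold Plin4 and Pnpla2, had summed intensities that overlapped between the genotypes in both muscles, from 29024 to 29832 in Control_QF and 28224 to 29925 in Dysf_null_QF, and from 21860 to 23013 in Control_TA and 21488 to 23593 in Dysf_null_TA.

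Single arrays decided several of these calls. Plin4 lost its call without Dysf_null_QF 1, Control_QF 1, Dysf_null_TA 3 or Control_TA 2 (adjusted p up to 0.0645). Pnpla2 stayed called only without Control_QF 3, Control_TA 1 or Dysf_null_TA 2 (adjusted p up to 0.0776). Lpin1 stayed called only without Control_QF 2 or Control_TA 3 (adjusted p up to 0.127). Gbe1 stayed called only without Control_QF 1, Control_QF 2, Dysf_null_QF 1 or Dysf_null_QF 3 (adjusted p up to 0.11). Hk2 stayed called only without Control_QF 2, Control_QF 3, Dysf_null_QF 1 or Dysf_null_QF 2 (adjusted p up to 0.0852). Without both QF arrays numbered 2 the adjusted p was 0.0691 for Pnpla2, 0.058 for Lpin1 and 0.0578 for Hk2. Each of the lists for fatty acid use, glycolysis and fat had between 0 and 2 falls when 1 array was left out.

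The other lower members were Phlda3, Tango2, Ank3 and Inmt. Phlda3, a small protein with a pleckstrin homology-like domain, lay at 9.998, 9.58 and 9.44 in Control_QF, 9.11, 8.91 and 8.63 in Dysf_null_QF, 10.51, 10.51 and 10.50 in Control_TA and 9.89, 9.65 and 9.46 in Dysf_null_TA. Control_TA was almost constant, Dysf_null arrays were lower in both muscles, and the difference was -0.81 ± 0.12 (adjusted p = 0.00465). Tango2 lay at 9.93, 9.64 and 9.89 in Control_QF, 8.65, 9.03 and 8.76 in Dysf_null_QF, 9.05, 9.38 and 9.61 in Control_TA and 8.59, 8.60 and 8.80 in Dysf_null_TA. The gap was wide in QF (-1.01) and narrower in TA (-0.68), with a difference of -0.85 ± 0.12 (adjusted p = 0.00465). Ank3, ankyrin G, which ties membrane proteins to the spectrin skeleton, fell (-0.65 ± 0.11, adjusted p = 0.0127); its other probe set stood at -0.79 ± 0.44. Inmt, a methyltransferase of indole amines, had the largest fall, -2.05 ± 0.40 (adjusted p = 0.0269), but its groups overlapped in TA: it lay at 9.42, 9.22 and 9.60 in Control_QF, 6.92, 5.93 and 5.80 in Dysf_null_QF, 7.42, 7.80 and 8.41 in Control_TA and 6.43, 6.74 and 7.76 in Dysf_null_TA. Inmt stayed called only without Control_TA 1, Control_TA 2 or Dysf_null_TA 3 (adjusted p up to 0.072), and without both QF arrays numbered 2 its adjusted p was 0.0788.

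In several lists limma called no probe set. These were oxidative phosphorylation (0 of 81, with 2 higher and 1 lower at an unadjusted p under 0.05), heat shock proteins (0 of 36, 2 and 4), ribosomal proteins (0 of 37, 1 and 1), fast fibre genes (0 of 29, 0 and 0), calcium release and T-tubule genes (0 of 25, 0 and 1) and clock genes (0 of 15, 0 and 1). With the replicate block, which called 2.87% of all, these lists had 0 calls too. The medians were -0.06 for oxidative phosphorylation, of which 40 probe sets were lower and 10 higher in both muscles, and 0.01 for ribosomal proteins. Endothelial and mural markers (0 of 34, 5 and 0) had 1 rise with the replicate block, as had Schwann cell and nerve markers (0 of 19, 1 and 0). Mast cell markers (0 of 10, 1 and 0) and the IGF axis (0 of 33, 2 and 2) had 0 and 2 calls with it. Neutrophil markers (0 of 20, 1 and 0) were not part of the shared effect: their summed intensities ran from 1333 to 2021 in Control_QF and 1116 to 1658 in Dysf_null_QF, and from 1008 to 1269 in Control_TA and 2153 to 2251 in Dysf_null_TA, so that they were higher in Dysf_null_TA without overlap. In QF the ranges overlapped, and the Dysf_null array was lower than the Control array of the same number in 3 of 3 pairs.

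**Figure D5:**
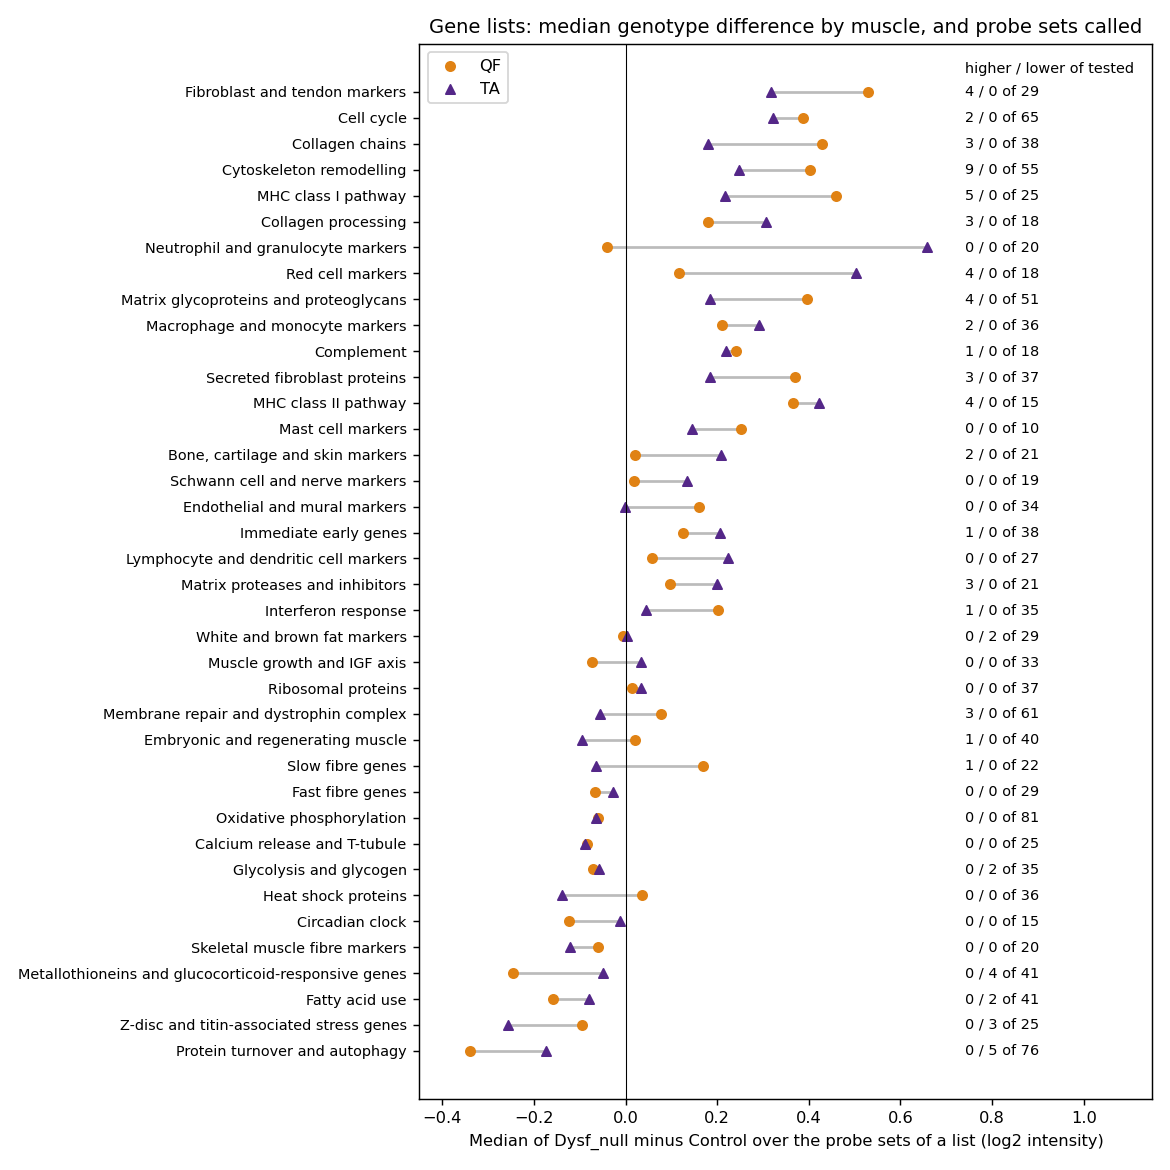
Median difference between Dysf_null and Control (log2 intensity) over the probe sets of each list of at least 5, in QF (circles) and in TA (triangles), ordered by the median of the shared difference, with the number called higher and lower on the right. Matrix, cytoskeleton, cell cycle and class I lists are above 0 in both muscles, protein turnover and Z-disc lists are below 0 in both, and neutrophil markers are near 0 in QF (-0.04) and at 0.66 in TA.

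Whether a shared difference was of the same size in both muscles was asked by a separate test, of the TA difference less the QF difference. Of the 88 members 55 were larger in QF, 42 of the 66 higher and 13 of the 22 lower. The test passed for 0 of the 88 (limma, with 20 at an unadjusted p under 0.05), against 7 of all 10331 (0.0678%) and 315 at an unadjusted p (3.05%). This does not show that the sizes are equal: the 95% interval of the difference lay within ±1 log2 unit for 50 of the 88, with a median half-width of 0.57. The largest gaps, each with its 95% interval, were those of Inmt (2.30, 1.11 to 3.48), Isg20 (2.00, 1.01 to 2.99), Ankrd1 (-1.28, -2.34 to -0.23) and Col3a1 (-1.24, -1.86 to -0.63). With the replicate block 4 members passed: Col3a1 (adjusted p = 0.00914), Inmt (0.0321), Alas2 (0.0328) and Retreg1 (0.0328). The larger difference was in QF for Col3a1, Inmt and Retreg1 and in TA for Alas2.

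The levels of the members were also compared between the muscles themselves. In the same fit, TA minus QF was called for 7 of the 88, against 103 of 10331 (0.997%). Ankrd1 (1.54 ± 0.29), Gbe1 (1.12 ± 0.18), S100a6 (0.82 ± 0.14), Phlda3 (0.81 ± 0.12), Nrap (0.60 ± 0.10) and Tpm4 (0.44 ± 0.08) were higher in TA, and Myl2 (-0.60 ± 0.09) was higher in QF, with adjusted p between 0.003 and 0.0195. Leaving out 1 array at a time gave between 5 and 8, the fit without the intensity trend 4 and a common median 3. The members had smaller standard errors (median 0.134 for the higher and 0.142 for the lower) than all probe sets tested (0.225), which their choice favoured, so nothing is read from these shares or from those of the test of size between muscles against the background.

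The members were spread over the genome. On chromosome 17, which holds the class I heavy chain and class II chain genes, 11 of 402 measured genes were members, and on chromosome 15, 8 of 296, against 80 of 7302 placed in all. On chromosome 6, which holds Dysf, 7 of 423 measured genes were members (1.65%). In the order of measured genes H2-Ab1, H2-Aa and H2-Eb1 were neighbours, as were Mt2 and Mt1, and Tuba1a and Tuba1c. Among the 50 measured genes nearest to Dysf, 25 on each side 1 was a member, Hk2. Whether probes read the alleles of both strains equally was not tested.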

How the data were processed

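Total RNA of QF and TA muscle from Dysf_null and Control mice was measured on 12 arrays, 3 per group, grouped by the labels. The authors deposited linear intensities, 1 per probe set, which the values show to be scaled to a trimmed mean between 200.1 and 200.2 on each array; the scanner software and the way probes were summarised: not given in the sources used here. After 66 control probe sets were left out, 12422 were quantile normalized, floored at the 25th percentile (23.025, log2 4.53) and log2 transformed, and the test covered the 10331 that exceeded the floor on 3 or more arrays. limma 3.58.1 (R 4.3.3) fitted muscle and genotype (9 residual degrees of freedom, variances moderated with an intensity trend, two-sided), with Benjamini-Hochberg adjustment over all 10331. The difference in size between muscles came from the 4 group means. Tests were run on simulated data first. Depth does not apply to arrays, and their number limits the precision.

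Members and gene lists were chosen with earlier results of these data known. Genes came from the platform annotation (10833 probe sets with 1 symbol, 396 with several, 1193 not listed), and probe sets of 1 gene were tested separately. Values on every array are given for the 16 higher and 12 lower members with the largest differences and no overlap in either muscle, other members are named in their group, and up to 4 genes of a list by smallest p.

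Replicate numbers were checked as pairs: deviations from the group means of the Control and Dysf_null arrays with 1 number correlated at 0.39, 0.711 and 0.66 in QF and 0.182, 0.114 and 0.231 in TA, so the number within a muscle was used as a block. Between muscles the correlation within a genotype and number ran from -0.141 to 0.123. Motifs were searched as plain letters in RefSeq promoter windows. Python 3.11.15 with matplotlib 3.10.9 drew the figures.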

Additional observations from a re-analysis of the deposited data

Results flagged for a closer look

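For 4 members the genotype difference was of unequal size in QF and TA by a test of that difference with the replicate block. In Inmt the fall was larger in QF, with TA minus QF at 2.30 ± 0.33 (limma, adjusted p = 0.0321). The fall of Retreg1 was also larger in QF (1.18 ± 0.17, adjusted p = 0.0328). Col3a1 rose more in QF (-1.24 ± 0.14, adjusted p = 0.00914). Alas2 rose more in TA (1.04 ± 0.15, adjusted p = 0.0328). Without the block none of the 4 passed, and over the 12 arrays 0 of the 88 members did, with 20 at an unadjusted p under 0.05.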

How the results depend on the processing

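Against 88 members (66 higher, 22 lower), the counts were 14 (12 and 2) with a common median, 49 (42 and 7) with no filter on low values, 34 (29 and 5) when variances had no intensity trend, 242 (161 and 81) when arrays were weighted, 297 (202 and 95) with the replicate block, and 58 with 14 lower when QF and TA of 1 genotype and number were averaged (all 12 arrays, as 6 values); the cause was not tested. Leaving out 1 array gave 55 to 96 (46 to 74 higher, 8 to 22 lower). No quantile normalization, another floor or pseudocount, a stricter filter, the random block, the average of group means and the fit without both QF arrays numbered 2 gave 82 to 112. In no setting did a member change direction, which their choice on the same arrays favoured. All scalings moved the median of all genes by less than 0.1. The block raised the members called for a difference between muscles from 0 to 4, and other alternatives gave 0. The 7 members called between muscles were 4 without the trend, 3 with a common median and 5 to 8 when 1 array was left out. Low signal limits H2-Aa, H2-Ab1, Ccn4, Isg20, Mmp13 and 93273_at, which had arrays at or near the floor.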
